A study of Mus musculus with 16 samples.

Results

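The genes that encode voltage-gated sodium and calcium channels were examined in the brain of aged mice treated with adropin. They were taken as the protein-coding genes whose symbols begin with Scn followed by a number and a or b, with Cacna, or with Cacnb or Cacng followed by a number. This rule found 42 of the 40481 genes listed, under 40 symbols. The symbols Cacng6 and Cacng7 each have a second identifier, and both of these had no count in any mouse. Male C57BL mice bought at 18 months of age received 1 intraperitoneal injection a day for about a month, either of adropin(34-76), the putative secreted part of the peptide encoded by Enho, at 90 nmol/kg/d in saline with bovine serum albumin, or of this diluent alone. All mice went through behavioural testing during treatment and were fasted before the brain was taken. The study treated 15 mice per group, and 8 per group were sequenced here, each used as 1 replicate. The labels give no genotype beyond the strain and no region of the brain, and a mouse is named below by the pair of numbers in its label, such as 8_3, whose meaning is not given in the sources used here.

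Voltage-gated channels open when the membrane depolarizes. The alpha subunits of sodium channels and the alpha1 subunits of calcium channels form the pore and carry the voltage sensors, sodium channels fire the action potential, and calcium channels couple it to transmitter release, dendritic signalling and gene expression. The sodium beta subunits are cell adhesion molecules that modulate the pore, the calcium alpha2delta and beta subunits bring alpha1 to the membrane and set its gating, and several genes named as calcium gamma subunits encode transmembrane AMPA receptor regulatory proteins (TARPs), which carry glutamate receptors to the synapse.

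Values are CPM, counts scaled to a fixed library total with TMM size factors over all genes, and library totals lay between 35026503 and 70314050 counts. Genes over 1 CPM in at least 7 mice were tested, which left 35 of the 42 channel genes and 14949 genes in all. The labelled tissue was set against markers of brain regions. Slc17a7, the vesicular glutamate transporter of the cortex and hippocampus, ranged from 1675 to 2274 TMM-normalized CPM over all 16 mice. Gabra6, which marks cerebellar granule cells, was at 0.242 or below in 15 mice and at 34.9 in saline mouse 8_3, where the choroid plexus gene Ttr was also at 2398 against at most 311 in the other 15 mice. The label says brain, and this defining marker of the cerebellum was near 0 in 15 of 16 mice. In bulk tissue, fewer cells of a type and less RNA per cell cannot be told apart.

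Several of the genes are neighbours. Scn3a, Scn2a, Scn1a, Scn9a and Scn7a lie in this order on chromosome 2 of GRCm38, from position 65457118 at the end of Scn3a to position 66784914 at the start of Scn7a. Scn10a and Scn11a lie together on chromosome 9, as do Scn2b and Scn4b, while Cacng7, Cacng8 and Cacng6 lie together on chromosome 7 and Cacng1, Cacng4 and Cacng5 on chromosome 11. Such paralogs can share stretches of identical sequence, and only uniquely aligned reads had been counted. The longest coding sequence of each gene was therefore compared within its class over 136 pairs. The reads were 150 bases long, and 2 pairs, Scn1a with Scn2a and Scn3a with Scn9a, shared an identical run of at least that length. A single read inside such a run cannot be given to one gene. Reads were sequenced in pairs, and how often the mate resolved such a read was not tested. The longest run that Scn8a shared with another member was 55 bases, with Scn3a. The longest among the calcium alpha1 genes was 68 bases, between Cacna1g and Cacna1i, and none in the other classes exceeded 26 bases. The counts of Scn1a, Scn2a, Scn3a and Scn9a are therefore uncertain over a short stretch, and those of Scn8a are not affected by a run as long as a read.

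Scn8a was the only channel gene to pass the unadjusted threshold, and its promoter windows are shown for that reason. RefSeq gives it 2 start sites on the plus strand of GRCm38, at windows chr15:100870395-100870694 and chr15:100936021-100936320. Each window holds 250 bases before and 50 bases from the start, and capitals mark CG dinucleotides.

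Scn8a, first window: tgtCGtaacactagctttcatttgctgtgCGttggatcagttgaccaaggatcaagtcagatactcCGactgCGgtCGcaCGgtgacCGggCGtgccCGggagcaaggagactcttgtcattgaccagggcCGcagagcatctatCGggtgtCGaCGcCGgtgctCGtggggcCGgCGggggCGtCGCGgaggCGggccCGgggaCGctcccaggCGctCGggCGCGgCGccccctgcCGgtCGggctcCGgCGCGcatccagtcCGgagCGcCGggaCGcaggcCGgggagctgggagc

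Scn8a, second window: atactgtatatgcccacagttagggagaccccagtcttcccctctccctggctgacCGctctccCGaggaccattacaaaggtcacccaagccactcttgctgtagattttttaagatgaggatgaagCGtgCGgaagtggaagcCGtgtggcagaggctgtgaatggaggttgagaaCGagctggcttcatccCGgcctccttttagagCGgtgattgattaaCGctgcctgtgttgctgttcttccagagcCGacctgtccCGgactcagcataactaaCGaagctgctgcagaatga

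The first window held 38 CG dinucleotides and the second 12, against a median of 7 over 32851 promoter windows of the same length in RefSeq. Windows were found for 30 of the 40 channel symbols, and the median over their 41 windows was 9. The gene counts add transcripts from both starts of Scn8a, so its values do not tell them apart.

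The brain expressed the channel genes at very unequal levels, which were compared per kb of exon. Among the sodium alpha genes, Scn8a, the main channel of the axon initial segment and the nodes of Ranvier in the adult, stood first at 32.1 ± 3.10 TMM-normalized CPM per kb (SD, n = 16). It was followed by Scn2a, a channel of excitatory neurons, at 21.4 ± 2.52 CPM per kb. Scn1a, the main channel of fast-spiking interneurons, came next at 9.89 ± 2.74 CPM per kb, and Scn3a, known for its embryonic expression, followed at 2.30 ± 0.323 CPM per kb. This order of the first 4 genes held in all 16 mice with no overlap between neighbours. Scn7a (0.363 ± 0.108 CPM per kb), Scn9a (0.320 ± 0.0408) and Scn10a (0.151 ± 0.0727) were far lower, and their ranges overlapped. Both Scn9a and Scn10a are best known from sensory neurons. Scn4a of skeletal muscle and Scn11a of sensory neurons had at most 10 and 30 counts in any mouse and were not tested.

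Within the sodium beta genes, Scn2b had 64.6 ± 8.54 TMM-normalized CPM per kb of exon (SD, n = 16). In all 16 mice it lay above Scn3b, at 21.5 ± 5.20 CPM per kb, whose range overlapped that of Scn4b at 15.8 ± 7.82 CPM per kb. Among the calcium alpha1 genes the levels were close together. Cacna1a, which forms the P/Q-type channel of the presynaptic terminal, had 14.5 ± 1.63 CPM per kb, Cacna1i of the T type 12.4 ± 2.77 and Cacna1b of the N type 11.6 ± 1.80 CPM per kb. Cacna1g of the T type (10.3 ± 0.917) and Cacna1e of the R type (10.2 ± 1.79 CPM per kb) kept their order in 9 of 16 mice, and Cacna1h of the T type was below both at 6.96 ± 1.28 CPM per kb. The L-type genes Cacna1c (4.05 ± 0.670) and Cacna1d (3.56 ± 0.332 CPM per kb) were lowest of the 8 tested. Cacna1s of skeletal muscle and Cacna1f of the retina stayed under the filter, with 8 to 49 and 17 to 113 counts per mouse. The order depended on the length used. Per kb of coding sequence, Cacna1e stood above Cacna1a, at 35.4 against 23.3 CPM per kb, and Cacna1c above Cacna1h, at 12.2 against 9.60, while Scn8a, Cacna2d1, Cacnb3 and Cacng7 led their classes on either length and with scaling to library size only.

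Of the accessory calcium channel genes, Cacna2d1 led the alpha2delta class with 13.4 ± 1.99 TMM-normalized CPM per kb of exon (SD, n = 16), above Cacna2d3 at 7.14 ± 1.18 and Cacna2d2 at 5.88 ± 1.04 CPM per kb, and Cacna2d4 was at 0.225 ± 0.0374. In the beta class Cacnb3 (83.8 ± 6.67), Cacnb1 (42.4 ± 3.70), Cacnb4 (17.4 ± 3.28) and Cacnb2 (2.74 ± 0.340 CPM per kb) kept their order in all 16 mice without overlap, although Cacnb4 stood above Cacnb1 per kb of coding sequence, at 95.8 against 92.3 CPM per kb. In the gamma class the TARP gene Cacng7 stood first at 130 ± 9.11 CPM per kb, before Cacng3 at 49.2 ± 3.95, Cacng2, which encodes stargazin, at 38.1 ± 7.63 and Cacng8 at 33.2 ± 4.68 CPM per kb. Cacng3 was above Cacng2 in 15 of 16 mice, and Cacng2 above Cacng8 in 9 of 16, while per kb of coding sequence Cacng2 stood above Cacng3, at 217 against 145 CPM per kb. Cacng4 (11.4 ± 2.13), Cacng5 (2.22 ± 0.530) and Cacng6 (0.502 ± 0.146 CPM per kb) followed without overlap. Cacng1 of skeletal muscle had at most 11 counts in any mouse and was not tested.

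**Figure D1:**
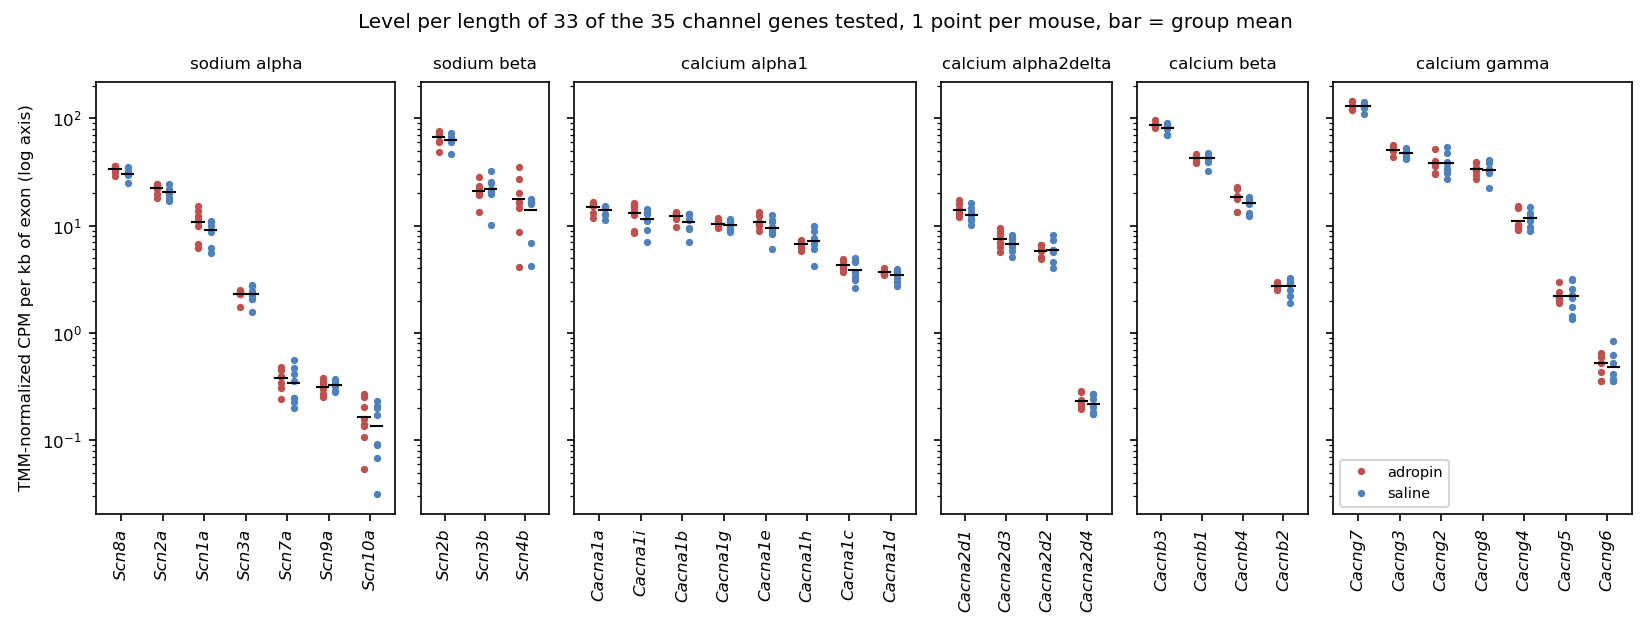
Level of 33 of the 35 channel genes tested, in TMM-normalized CPM per kb of exon on a log axis, with 1 point per mouse (adropin red, saline blue) and a bar at each group mean. Scn8a, Cacna1a, Cacna2d1, Cacnb3 and Cacng7 lead their classes, and the points of the groups overlap for every gene shown.

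The question of the treatment comparison was whether the peptide changes expression in the aged brain. Of the 35 channel genes tested, 1 rose at an unadjusted p below 0.05, which is 2.86% of them, against 3.99% of all genes tested that passed in either direction, 1.86% that passed upwards and 2.13% that passed downwards (edgeR quasi-likelihood test). A share near this background is not a result about the channel genes. No channel gene passed a fold change of 1.5 together with that p, against 0.421% of all genes. None had an adjusted p below 0.05 after Benjamini-Hochberg adjustment over all genes in edgeR, where the share of all genes was 0%, and the smallest adjusted p of a channel gene was 0.874. limma-voom and DESeq2 also called 1 channel gene at the unadjusted threshold, and no fit called one after adjustment. The 95% interval lay inside a fold change of 1.5 in either direction for 30 of the 35 genes and reached past it for the other 5, among them Scn1a, Scn4b, Scn7a and Scn10a. For no channel gene did the values of the groups lie apart. When single mice were left out, 0 channel genes passed the unadjusted threshold without 1_3, 5_5, 6_2 or 8_1, 2 passed without 3_3, 4_3, 6_1 or 7_4, and 3 passed without 5_4 (Scn8a, Scn2a and Cacng3, edgeR). The share of all genes that passed moved as well, from 2.56% without 2_4 to 9.67% without 4_3, and was 3.32% without 5_4.

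Scn8a was the gene that passed. In adropin-treated mice its level ran from 453 to 570 around a median of 536 TMM-normalized CPM, and in saline-treated mice from 391 to 551 around a median of 482. The groups overlapped, and 7 of 8 adropin-treated mice were above the saline median. The means were 531 ± 40.5 and 480 ± 44.8 CPM (SD, n = 8), which is 0.15 higher in adropin on the log2 scale (standard error 0.07, 95% interval 0.01 to 0.28, unadjusted p = 0.0380 and adjusted p = 0.874 by edgeR). A two-sided exact permutation test over the divisions of the 16 mice gave p = 0.0319. The lowest level was in saline mouse 6_1, and without it the log2 fold change was 0.11 (edgeR, unadjusted p = 0.0772). The call was lost without any one of adropin mice 1_3, 4_3, 5_5 and 7_4 and saline mice 6_1, 6_2, 7_1 and 8_1, with unadjusted p-values from 0.0502 to 0.0772 in edgeR, and also with scaling to library size only (0.12, unadjusted p = 0.0599). It was lost as well with a block for the first label number (log2 fold change 0.08, edgeR, unadjusted p = 0.395) or for the second (0.11, unadjusted p = 0.146).

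Scn2a, the next sodium alpha gene by level, had a lowest value of 229, a median of 301 and a highest of 313 TMM-normalized CPM in adropin and 217, 261 and 311 in saline. Its log2 fold change of 0.14 (standard error 0.08) did not pass (edgeR, unadjusted p = 0.0981, adjusted p = 0.874), and its means were 285 ± 30.9 and 259 ± 29.3 CPM (SD, n = 8). Scn2a passed with a covariate for Gm42418, a ribosomal RNA pseudogene locus (0.17, edgeR, unadjusted p = 0.0381). It also passed without saline mouse 5_4 or adropin mouse 7_4 (edgeR, unadjusted p = 0.0277 and 0.0269). A block for the first label number turned its log2 fold change to -0.06. Scn3a had a log2 fold change near 0, at 21.8 to 31.2 around a median of 29.5 CPM in adropin and 19.7 to 35.2 around a median of 28.5 CPM in saline, and means of 28.8 ± 2.98 and 28.6 ± 5.07 CPM (log2 fold change 0.01, standard error 0.10, edgeR adjusted p = 0.985). Of the 8 sodium alpha genes tested, 6 had a log2 fold change above 0 and 2 below, around a median of 0.14. The highest was 0.29 for Scn10a, with a standard error of 0.36 and only 12 to 109 counts per mouse. The total of the class per kb of exon was 63.4 to 79.3 CPM around a median of 70.9 in adropin and 57.0 to 69.5 around a median of 63.5 CPM in saline. These totals overlapped as well, and the share held by Scn8a was nearly equal, at 47.6% ± 3.04 in adropin and 47.8% ± 3.01 in saline (SD, n = 8).

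None of the 4 sodium beta genes passed. Scn2b, which binds the sodium alpha subunit covalently, ran from 227 to 357 around a median of 331 TMM-normalized CPM in adropin and from 217 to 340 around a median of 294 CPM in saline. It differed by 0.11 on the log2 scale (standard error 0.09, adjusted p = 0.874 by edgeR), with means of 312 ± 43.4 and 290 ± 34.9 CPM (SD, n = 8). The difference was 0.06 without saline mouse 5_4 and 0.17 without adropin mouse 4_3. It was -0.0010 with the covariate for Gm42418 and 0.25 with a block for the first label number. Scn4b, whose beta subunit gives rise to the resurgent sodium current of fast-firing neurons, had the highest log2 fold change of all channel genes, 0.36, and a standard error as large as 0.35 (edgeR adjusted p = 0.877).

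None of the 8 calcium alpha1 genes passed, although 7 had a log2 fold change above 0 and their median was 0.13. Cacna1a ran from 133 to 188 around a median of 181 TMM-normalized CPM in adropin and from 130 to 172 around a median of 168 CPM in saline. Its means of 172 ± 19.5 and 159 ± 16.4 CPM (SD, n = 8) differed by 0.11 on the log2 scale (standard error 0.08, adjusted p = 0.874 by edgeR). This value was 0.07 without saline mouse 5_4, 0.05 with a covariate for Gm42418, a ribosomal RNA pseudogene locus, and 0.24 with a block for the first label number, and Cacna1a passed without adropin mouse 4_3 (0.16, edgeR, unadjusted p = 0.0307). Cacna1i, known from the reticular thalamus, ran from 84.5 to 162 around a median of 140 CPM in adropin and from 69.7 to 140 around a median of 119 CPM in saline. Its means of 130 ± 29.5 and 113 ± 23.8 CPM differed by 0.20 on the log2 scale (standard error 0.15, adjusted p = 0.874 by edgeR). This value fell to 0.12 without saline mouse 5_4 and to 0.05 with the covariate for Gm42418 and rose to 0.38 with a block for the first label number. Both genes overlapped between the groups over most of their range. The T-type gene Cacna1h was the 1 gene of the class below 0, with a log2 fold change of -0.10 (standard error 0.12).

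Among the accessory calcium channel genes, Cacng3, a TARP of the forebrain, came closest to the threshold. It ran from 122 to 156 around a median of 141 TMM-normalized CPM in adropin and from 117 to 145 around a median of 132 CPM in saline, and 7 of 8 adropin-treated mice were above the saline median. The means were 142 ± 10.3 and 131 ± 9.17 CPM (SD, n = 8), or 0.11 higher on the log2 scale (standard error 0.06, edgeR unadjusted p = 0.0597, adjusted p = 0.874), while the exact permutation test gave p = 0.0496. Cacng3 passed with the covariate for Gm42418 (0.15, edgeR, unadjusted p = 0.0141) and without mouse 5_4, 7_1 or 7_4 (edgeR, unadjusted p 0.0168 to 0.0477). With a block for the first label number its log2 fold change was -0.01 (edgeR, unadjusted p = 0.906). Cacnb4, whose loss causes ataxia in the lethargic mouse, ran from 121 to 205 around a median of 167 CPM in adropin and from 110 to 165 around a median of 152 CPM in saline. Its log2 fold change of 0.21 (standard error 0.12) did not pass (edgeR unadjusted p = 0.0998, adjusted p = 0.874), and its means were 167 ± 33.6 and 145 ± 20.9 CPM. The log2 fold change was 0.10 with the covariate for Gm42418 (edgeR, unadjusted p = 0.356). Cacnb4 passed with a block for the first label number (0.33, edgeR, unadjusted p = 0.0417). It also passed without adropin mouse 3_3 or 4_3 (edgeR, unadjusted p = 0.0270 and 0.0262). Of the exons of Cacnb4, 16% are overlapped by A430018G15Rik on the other strand, and since the sources used here do not say whether counting used strand, its count is uncertain. Cacna2d1, the subunit bound by gabapentin, ran from 150 to 215 around a median of 171 CPM in adropin and from 127 to 202 around a median of 150 CPM in saline. All 8 adropin-treated mice were above the saline median, and the log2 fold change was 0.16 (standard error 0.10, edgeR unadjusted p = 0.108, adjusted p = 0.874) with means of 175 ± 22.1 and 157 ± 25.1 CPM. With a block for the first label number the log2 fold change was 0.01.

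The remaining accessory genes of the rule had larger p-values. Cacna2d3 ran from 49.2 to 82.2 around a median of 63.9 TMM-normalized CPM in adropin and from 44.2 to 70.7 around a median of 59.6 CPM in saline (means 65.4 ± 11.2 and 59.0 ± 8.81, SD, n = 8, log2 fold change 0.15, standard error 0.11). Cacnb3 ran from 329 to 388 around a median of 344 CPM in adropin and from 280 to 359 around a median of 336 CPM in saline (means 347 ± 18.8 and 325 ± 29.9, log2 fold change 0.10, standard error 0.06). Cacnb1 and Cacng7 had log2 fold changes near 0. Cacnb1 ran from 174 to 210 around a median of 198 CPM in adropin and from 147 to 217 around a median of 196 CPM in saline (means 193 ± 12.7 and 191 ± 21.0, log2 fold change 0.01, standard error 0.07). Cacng7 ran from 290 to 353 around a median of 315 CPM in adropin and from 269 to 343 around a median of 317 CPM in saline (means 317 ± 23.6 and 315 ± 22.4, log2 fold change 0.01, standard error 0.06). For Cacng7 the 95% interval ran from -0.11 to 0.13, the narrowest of the channel genes after that of Cacng3. The spread between mice was wider for Cacng2 and Cacng5. Cacng2 ran from 168 to 284 around a median of 214 CPM in adropin and from 149 to 300 around a median of 201 CPM in saline (means 210 ± 36.4 and 209 ± 49.7, log2 fold change 0.01, standard error 0.13). Cacng5, a TARP of low level here, ran from 7.28 to 11.4 around a median of 8.09 CPM in adropin and from 5.19 to 12.2 around a median of 8.32 CPM in saline (means 8.49 ± 1.3 and 8.50 ± 2.68, log2 fold change -0.00300, standard error 0.16). None of these 6 genes passed, with adjusted p-values from 0.874 to 0.997 in edgeR. By class, 3 of 4 alpha2delta genes had a log2 fold change above 0 (-0.02 to 0.16), as did all 4 beta genes (0.01 to 0.21) and 5 of 7 gamma genes (-0.08 to 0.11).

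**Figure D2:**
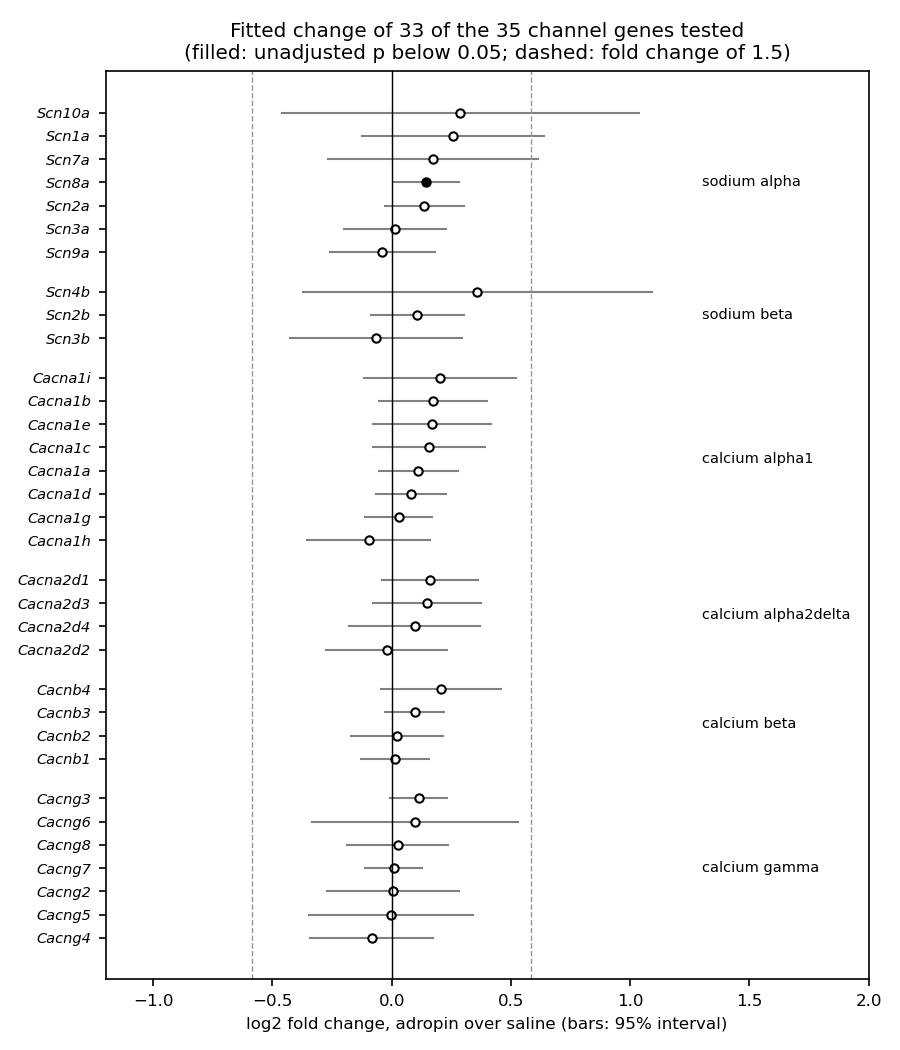
Fitted log2 fold change of 33 of the 35 channel genes tested, adropin over saline, with its 95% interval, ordered by class and by size within a class. The filled point is Scn8a, the only gene with an unadjusted p below 0.05, and the dashed lines mark a fold change of 1.5 in either direction.

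**Figure D3:**
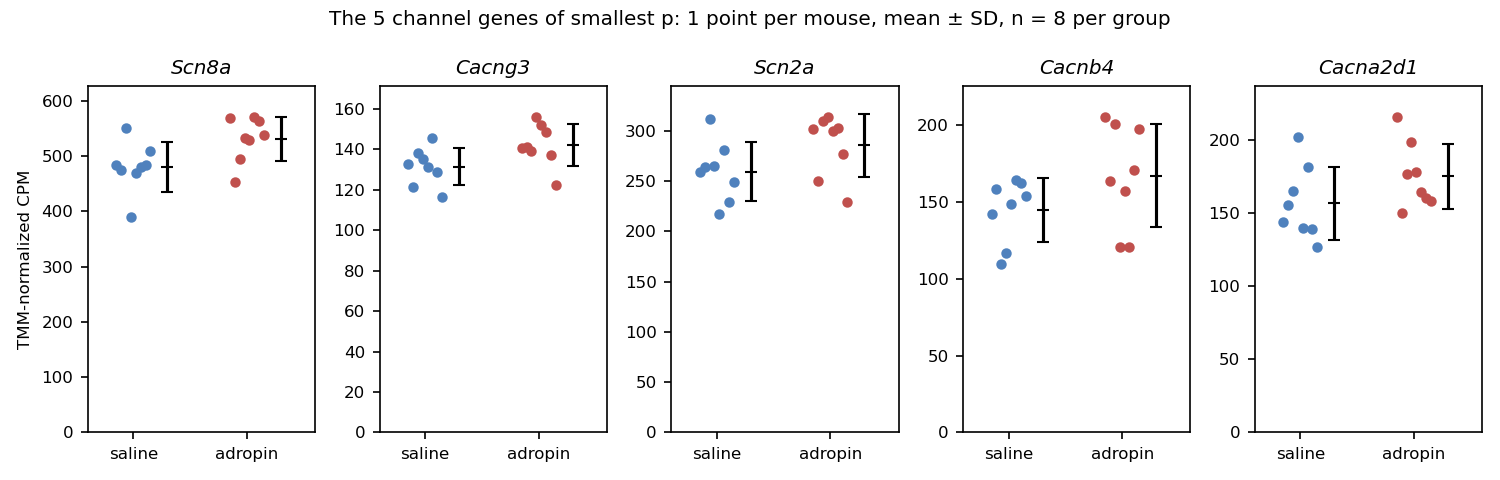
TMM-normalized CPM of the 5 channel genes with the smallest p in each mouse, with the mean and SD of 8 mice per group at the side. The groups overlap for each gene, and for Scn8a 7 of 8 adropin-treated mice lie above the saline median of 482.

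The direction of the small differences was uneven. Of the 35 channel genes, 28 had a log2 fold change above 0 and 7 below, or 80.0% above 0 against 49.2% of all genes tested. The median over the channel genes was 0.10 and over all genes -0.0019. These are counts over genes measured in the same mice and were not tested as a list. Some markers of cell types and brain regions passed the unadjusted threshold as well. All 4 choroid plexus markers tested were lower in adropin at an unadjusted p below 0.05 (edgeR), and the 6 markers of the list had a summed level of 10.6 to 71.3 CPM around a median of 17.3 against 10.7 to 2465 CPM around a median of 19.3 in saline, where the highest value was that of mouse 8_3. Of the cerebellar markers, Car8 had an unadjusted p of 0.0338 in edgeR, with 91.7 CPM in mouse 8_3 but 4.47 to 6.95 CPM in the other 7 saline mice and 5.13 to 7.24 CPM in adropin. Of the microglial markers 1 of 4 passed and was higher (Cx3cr1, edgeR, unadjusted p = 0.0225). Of the thalamic markers 2 of 5, Prkcd and Rgs16, passed and were lower (edgeR, unadjusted p = 0.0148 and 0.0245). Among these 5, only Synpo2 had a log2 fold change above 0, at 0.13. The thalamic sums were 32.5 to 39.1 CPM in adropin and 31.6 to 56.6 CPM in saline. None of the 6 cortical and hippocampal markers passed, with sums of 2305 to 2535 and 2021 to 2582 CPM. No tested marker of neurons, striatum, astrocytes, oligodendrocytes, endothelium or muscle passed either. The part of these markers in the direction of the channel genes was not tested. Scaling to library size only shifted all genes downwards, to a median of -0.02, and turned the split to 23 above and 12 below, or 65.7% above 0 against 41.5% of all genes. The split was 23 and 12 when blocked by the first label number, 25 and 10 when blocked by the second, and 24 and 11 with a covariate for Gm42418, which took 0.840% to 4.98% of the counts. The channel median less the median of all genes was 0.10 under each of the scalings (TMM, DESeq2 size factors and library size only), but 0.06 with the covariate for Gm42418 and 0.07 without saline mouse 5_4. Cacng5 had a fitted log2 fold change just below 0 and a difference of mean log2 CPM of 0.05, so its direction depended on the scale of averaging.

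The lowest mouse was a saline-treated one for 33 of the 35 channel genes, or 94.3%, against 60.5% of all genes tested. The highest was an adropin-treated mouse for 21, or 60.0%, against 42.0% of all genes. Among single mice, saline mouse 8_3, which carried the cerebellar and choroid plexus RNA, was lowest for 13 channel genes, or 37.1%, against 12.5% of all genes, and highest for Cacng2. Cacna1e was at 154 TMM-normalized CPM in this mouse and from 209 to 319 in the other 7 saline mice. Cacna1b was at 69.4 CPM there and from 93.1 to 128 in those 7. Scn3b, a beta subunit, was at 55.6 CPM in 8_3 and at 107 or more in the other saline mice, but at 72.9 CPM in adropin mouse 7_4. Of the 6 cerebellar markers examined, the summed level was 556 CPM in 8_3 against a saline median of 134, and their part in these low values was not tested. Without mouse 8_3, 25 of the 35 channel genes had a log2 fold change above 0, their median was 0.09, and that of Scn8a was 0.16 (edgeR, unadjusted p = 0.0324). Mouse 5_4 was lowest for 7 channel genes, or 20.0%, against 19.0% of all genes.

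A second pattern divided the mice of both groups. Scn4b had 20.5 and 43.0 TMM-normalized CPM in adropin mice 3_3 and 4_3 and 20.9 and 34.3 CPM in saline mice 6_1 and 5_4, while the 12 other mice were at 72.0 to 174 CPM. These genes were chosen after their values were seen. The same 4 mice were the lowest for Scn1a, which was at 61.7 to 75.2 CPM in them and at 96.5 to 169 CPM in the others. They were also the lowest for Cacna1i, Cacna2d2 and Cacnb4. Beside Scn4b, whose values chose the mice, 4 channel genes thus had these 4 lowest mice, as did 635 of the 14949 genes tested, or 4.25%, Scn4b and these genes included. Of these 4 mice, 2 belonged to each group. For Scn4b the SD was 48.6 CPM around a mean of 88.5 in adropin and 26.0 around 69.0 in saline.

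The sodium channel genes Scn10a and Scn4b varied widely, by a ratio of 8.56 and 8.46 between their highest and lowest mouse. Scn10a did so at 0.25 to 2.14 TMM-normalized CPM, near the filter of 1 CPM, and Scn4b at 20.5 to 174 CPM. Genes at the other end, such as Cacng7 and Cacng3, differed by a ratio of 1.31 and 1.34. The within-group SD of log2 CPM had a median of 0.24 over the channel genes tested and of 0.20 over all genes tested.

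**Figure D4:**
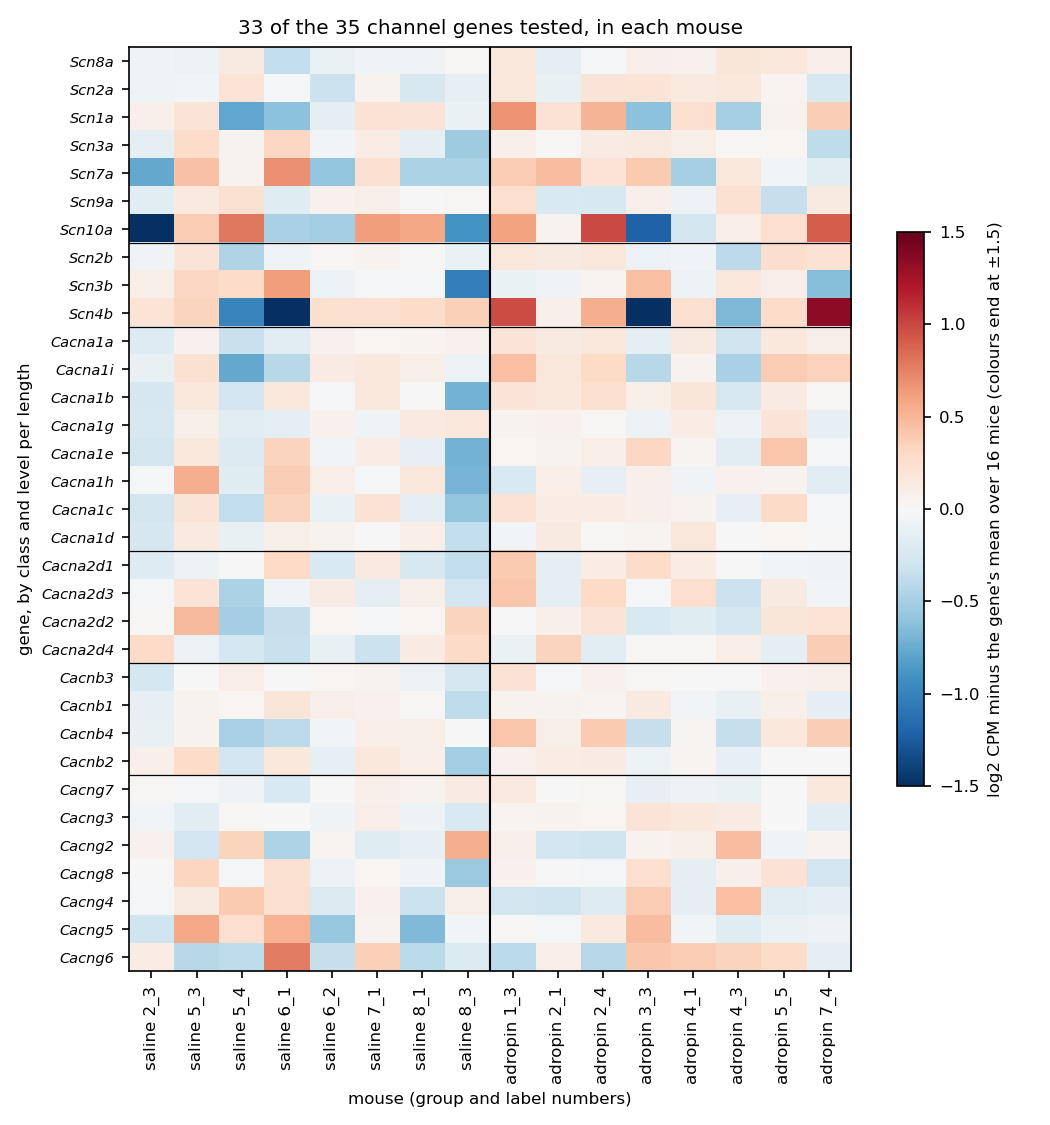
Log2 CPM of 33 of the 35 channel genes tested in each mouse less that gene's mean over the 16 mice (blue lower, red higher, colours ending at 1.5 either way), with saline mice on the left and adropin mice on the right of the line. Mouse 8_3 is blue for Cacna1e, Cacna1b and Scn3b, where it is the lowest of all mice, and Scn4b and Scn1a are blue in mice 5_4, 6_1, 3_3 and 4_3.

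Genes whose products bind, anchor or inhibit these channels, or belong to the related sodium leak channel, were examined as a list of 36, of which 35 were tested and Rem1 was not. An unadjusted p below 0.05 was reached by 4 of the 35, or 11.4%, against 3.99% of all genes (edgeR quasi-likelihood test), 3 higher and 1 lower, and none passed after adjustment, the smallest adjusted p being 0.874. When single mice were left out, the count ran from 2 to 10, the lowest without adropin mouse 1_3 or saline mouse 8_1 or 8_3 and the highest without adropin mouse 4_3. Without saline mouse 5_3 or 7_1 it was 9. The share of all genes that passed was also higher in these fits, at 9.67% without 4_3, 6.56% without 5_3 and 6.15% without 7_1, and it was 2.64%, 3.53% and 2.77% without 1_3, 8_1 and 8_3. Of the list, 27 genes had a log2 fold change above 0 and 8 below, around a median of 0.07. Of all genes tested, 49.2% lay above 0, around a median of -0.0019, and the split of the list was not tested.

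Rem2, a small GTPase that inhibits voltage-gated calcium channels, was the 1 that fell. It ran from 2.85 to 5.04 around a median of 3.42 TMM-normalized CPM in adropin and from 4.06 to 7.77 around a median of 4.70 CPM in saline, and all but 1 of the adropin-treated mice fell short of the saline median. The means were 3.68 ± 0.705 and 5.03 ± 1.19 CPM (SD, n = 8), a difference of -0.45 on the log2 scale (standard error 0.14, edgeR unadjusted p = 0.00514, adjusted p = 0.874), and the two-sided exact permutation test gave p = 0.00497. Leaving out any single mouse kept its log2 fold change between -0.52 and -0.32 and its unadjusted p below the threshold. A block for the first label number gave -0.40 and ended the call (edgeR, unadjusted p = 0.0514). The highest level was in saline mouse 5_3, and at these levels Rem2 is among the less abundant genes tested.

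Stx1a, a SNARE protein of the presynaptic membrane that binds the calcium channels of the terminal, rose. It ran from 341 to 409 around a median of 389 TMM-normalized CPM in adropin and from 302 to 369 around a median of 345 CPM in saline, with means of 382 ± 23.5 and 340 ± 25.3 CPM (SD, n = 8). The difference was 0.17 on the log2 scale (standard error 0.06, edgeR unadjusted p = 0.00713, adjusted p = 0.874), and the exact permutation test gave p = 0.00497. It kept its side of the threshold whichever single mouse was left out, but not with a block for the first label number, where the log2 fold change was 0.20 (edgeR, unadjusted p = 0.0617). Akap5, which anchors protein kinase A and calcineurin at L-type channels, ran from 98.6 to 145 around a median of 122 CPM in adropin and from 81.3 to 121 around a median of 102 CPM in saline (means 119 ± 15.8 and 102 ± 13.8, log2 fold change 0.22, standard error 0.09, edgeR unadjusted p = 0.0279, adjusted p = 0.874). Rims1, the active zone scaffold that tethers calcium channels near vesicles, ran from 163 to 299 around a median of 250 CPM in adropin and from 151 to 242 around a median of 196 CPM in saline (means 239 ± 42.5 and 198 ± 37.5, log2 fold change 0.28, standard error 0.12, edgeR unadjusted p = 0.0397, adjusted p = 0.874). The exact permutation p was 0.0452 for Akap5 and 0.0668 for Rims1, so that the call of Rims1 was lost with that test. In edgeR, Akap5 lost its call without 1_3, 3_3, 6_2, 8_1 or 8_3 (unadjusted p 0.0517 to 0.0667) and Rims1 without 1_3, 2_1, 2_3, 2_4, 5_4, 5_5, 7_4, 8_1 or 8_3 (unadjusted p 0.0535 to 0.0879). A block for the first label number lowered the log2 fold change of Akap5 to 0.06 (edgeR, unadjusted p = 0.642), and the second block gave it 0.20 (unadjusted p = 0.0999). Rims1 was at 0.15 with the covariate for Gm42418 (edgeR, unadjusted p = 0.117), and its call was also lost with the second block (unadjusted p = 0.0775) and with library size only (unadjusted p = 0.0527). With the first block Rims1 kept its call, at 0.42 (edgeR, unadjusted p = 0.0320). The groups overlapped for all 4 genes. Among partners at the axon initial segment, the log2 fold change was 0.03 (standard error 0.10) for Ank3, which encodes ankyrin-G, and 0.04 (standard error 0.07) for Sptbn4, which encodes a spectrin, and neither passed.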

How the data were processed

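Brain RNA of 16 mice was sequenced after poly-A selection as paired reads of 150 bases. STAR alignments to the Ensembl release 76 assembly were summarised by the authors with featureCounts, and the deposited counts per gene are raw: they cover reads with one unambiguous alignment. The strand setting is not given in the sources used here. The authors also deposited a table of CPM, which was not used here. Repeated entries of a gene (276 of 40757) were dropped. TMM size factors were calculated in edgeR 4.0.16 (R 4.3.3) over all genes, 355 ribosomal RNA genes were removed, and genes over 1 CPM in at least 7 mice entered the quasi-likelihood test of edgeR, with adjustment after Benjamini and Hochberg over every gene tested. Standard errors and 95% intervals were derived from the quasi-likelihood F statistic. Exact permutation tests used log2 CPM with a prior count of 2.

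Members, partner and marker lists were chosen with earlier results of these data known. Named in full were channel genes with an unadjusted p below 0.05, the 5 of smallest p, the 2 of highest level per length in each class, genes with an outlying mouse, and partner genes with an unadjusted p below 0.05. Some genes and sequences are not reported here. Other genes named were chosen after their values were seen. Exon and coding lengths came from GENCODE M21 on GRCm38, which holds 40 of the 42 identifiers, and promoter windows from RefSeq on GRCm38.p6. How far library totals limit the precision for genes near 1 CPM was not tested. The tests were checked on simulated data. Alternatives were limma-voom (limma 3.58.1), DESeq2 1.42.0, other scalings and filters, the label numbers as a block, a covariate for Gm42418, and leaving out each mouse. Every mouse has its own pair of label numbers, and the block of the first number compared only the numbers found in both groups.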

Additional observations from a re-analysis of the deposited data

Results flagged for a closer look

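In 4 of the 70 groups of 8 values examined (35 channel genes in each treatment group), 1 mouse stood far from the others. Chance alone gives about 1 in 20, or 3.5 of 70. All 4 were adropin-treated mice. Cacnb3, a calcium channel beta subunit, was at 388 TMM-normalized CPM in mouse 1_3, where the next highest adropin mouse was at 354. Cacng2, which encodes stargazin, was at 284 CPM in mouse 4_3, with the next at 219. Cacng5 was at 11.4 CPM in mouse 3_3, with the next at 9.15. Scn3a was at 21.8 CPM in mouse 7_4, the lowest of its group, with the next lowest at 28.7. The first of these mice also had the largest library, with a total count of 70314050.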

How the results depend on the processing

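The number of channel genes with an unadjusted p below 0.05 was 1 in the report. It was 0 when counts were scaled to library size only, 0 with a block for the second label number and 3 with a covariate for Gm42418, and it ran from 0 to 3 when single mice were left out. The number of partner genes was 4 and ran from 2 to 10 without single mice. The counts of channel genes past a fold change of 1.5 and of those past an adjusted p of 0.05 were 0 in every fit, and the median log2 fold change of the channel genes stayed between 0.06 and 0.11. A block for the first label number called Cacnb4 in place of Scn8a. It also left Rem2, Stx1a and Akap5 short of the threshold, with log2 fold changes of -0.40, 0.20 and 0.06 and unadjusted p-values of 0.0514, 0.0617 and 0.642 (edgeR). Numbers found in only one group carried no information there, and the numbers are not known to pair the mice. Of the channel genes tested, 7 lay under 10 CPM, and the effect of depth on them was not tested.

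Among the genes given in full, changes of sign occurred for 8, none of which was called in the report, and their cause was not tested except for scaling to library size only, which shifted the median of all genes to -0.02. Other channel genes changed sign too, as the split of higher and lower genes in the report shows. With library size only, the log2 fold change was -0.0092 for Cacnb1, -0.0108 for Cacng2, -0.0145 for Cacng7 and -0.0077 for Scn3a. With the covariate for Gm42418 it was -0.0077 for Cacnb1, -0.0188 for Cacng7 and -0.0010 for Scn2b. Under the block for the first label number it was -0.11 for Cacng2, -0.0107 for Cacng3, -0.0608 for Scn2a and -0.11 for Scn3a, and under that for the second -0.0048 for Cacng2 and -0.0023 for Cacng7. With DESeq2 it was -0.0014 for Cacng2, and for Cacng5 it was 0.0433 with limma-voom and 0.0487 as a difference of mean log2 CPM. Without single mice, the log2 fold change ran from -0.0329 to 0.0412 for Cacnb1, from -0.0606 to 0.0976 for Cacng2, from -0.0852 to 0.0977 for Cacng5, from -0.0223 to 0.0336 for Cacng7 and from -0.0506 to 0.0648 for Scn3a.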
